A study of Danio rerio with 2 samples.

Results

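The proteasome subunit genes are described here by their open chromatin in zebrafish embryos. Members were the regions of the deposited table whose gene symbol begins with psma, psmb, psmc, psmd, psme, psmf or psmg, which gave 42 of 35854 regions, at 38 genes on 18 chromosomes. Of these genes, 34 had 1 region and 4 had 2, and all 42 regions belonged to protein-coding genes. Of 59 gene symbols in the RefSeq annotation that fit the rule, 37 had a region under that symbol. The classes below are thus not complete. One gene taken by this rule, psmc3ip, encodes a partner of a proteasome ATPase known for its role in meiotic recombination and no subunit. The other 41 regions thus belonged to subunits, assembly chaperones, an activator and an inhibitor. Counts over all members and over their promoters include psmc3ip unless it is said to be left out.

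The proteasome is the protease that degrades proteins tagged with ubiquitin. Its barrel-shaped core is built of rings of alpha subunits, which gate the entrance, around rings of beta subunits, which hold the proteolytic sites. A regulatory particle caps the core, with a base of ATPases that unfold the substrate and a lid that removes the ubiquitin chain. Dedicated chaperones assemble both parts, and other activators and inhibitors bind the ends of the core. Its genes are active in nearly every cell, and their promoters are known in animals to be open across tissues.

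Open chromatin was measured by ATAC-seq, in which the transposase Tn5 cuts and tags accessible DNA, in single whole embryos at the 1-somite stage from which chorion and yolk had been removed. One library came from an Npas4l-KO embryo, homozygous for the bns297 allele of npas4l, and 1 from a WT (wild type) embryo. Npas4l is a bHLH-PAS transcription factor needed for endothelial and blood cell formation. The protocol text names the AB strain for both libraries, and the genetic background of the mutant is not described separately. The mutant lacks the factor in every cell of the embryo, and the cell types of the embryo are pooled in each library.

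The values were taken as normalised read counts per region, scaled between the libraries and rounded by the authors. The regions held 7066667 recovered reads in the Npas4l-KO library and 7853807 in the WT library, and the median region held 94 normalised reads in both. The WT figure and the counting intervals rest on the assumption that the WT scale factor is the reciprocal of that of the Npas4l-KO library. Differences are given as log2 ratios of Npas4l-KO over WT with 1 added to each value. The 95% interval in parentheses comes from how a region's recovered reads divide between the libraries (exact Clopper-Pearson). It holds only the error of counting. Amplified reads carry no molecular identifier and are not separate molecules, so the interval can be too narrow even for that error. Since each genotype had 1 library, genotypes could not be compared by a test, and the spread between embryos is unknown. Regions are counted by 2 rules of size, a difference of at least 1.3-fold and one of at least 2-fold. Coordinates are on GRCz10 as deposited. In whole embryos, fewer cells with an open region and less opening per cell cannot be told apart.

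Most proteasome promoters held more normalised reads in the Npas4l-KO library than in the WT library, by a small amount. A region counts as a promoter when its centre lies at most 1 kb from its gene's transcription start site (TSS), and 39 of the 42 regions were of this kind. Of these, 35 had a log2 ratio above 0, where 62.9% of all 13036 promoter regions did. Their median log2 ratio was 0.22, with quartiles of 0.10 and 0.39, against 0.11 for all promoter regions, with quartiles of −0.10 and 0.33. The 39 promoter regions together held 8609 normalised reads in the Npas4l-KO library and 7018 in the WT library.

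Large differences were few. Level bands below are 4 sets of promoter regions of equal size, divided by the mean of both libraries. Among the promoter regions, 11 of 39 were at least 1.3-fold higher in the Npas4l-KO library, where 21.2% of all promoter regions were, and 1 was at least 1.3-fold lower, where 8.68% were. At 2-fold, 2 were higher, psmf1 and psma2, and 0 were lower, where 2.68% and 1.02% of all promoter regions were. The 2 higher regions are 5.13% of the 39, a share that rests on few regions. The counting interval lay above 0 for 13 of 39 (27.2% of all promoter regions) and below 0 for 0 of 39 (9.67% of all promoter regions). Over all 42 regions, 36 lay above 0, where 49.4% of all regions did. Of the 42, 12 were at least 1.3-fold higher (19.8% of all regions), 3 at least 1.3-fold lower (21.4%), 3 at least 2-fold higher (3.78%) and 0 at least 2-fold lower (4.03%). With values centred on the promoter median, a shift of 0.11, 30 of 42 lay above 0, where 14320 of all 35854 regions did. Of the 39 promoter regions 29 did, where 6518 of all 13036 promoter regions did, a share set by centring on their median. On that scale 6 of 42 were at least 1.3-fold higher and 4 at least 1.3-fold lower. The shares above are not centred, and centred shares of all regions for the 1.3-fold rule are not given here.

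**Figure D1:**
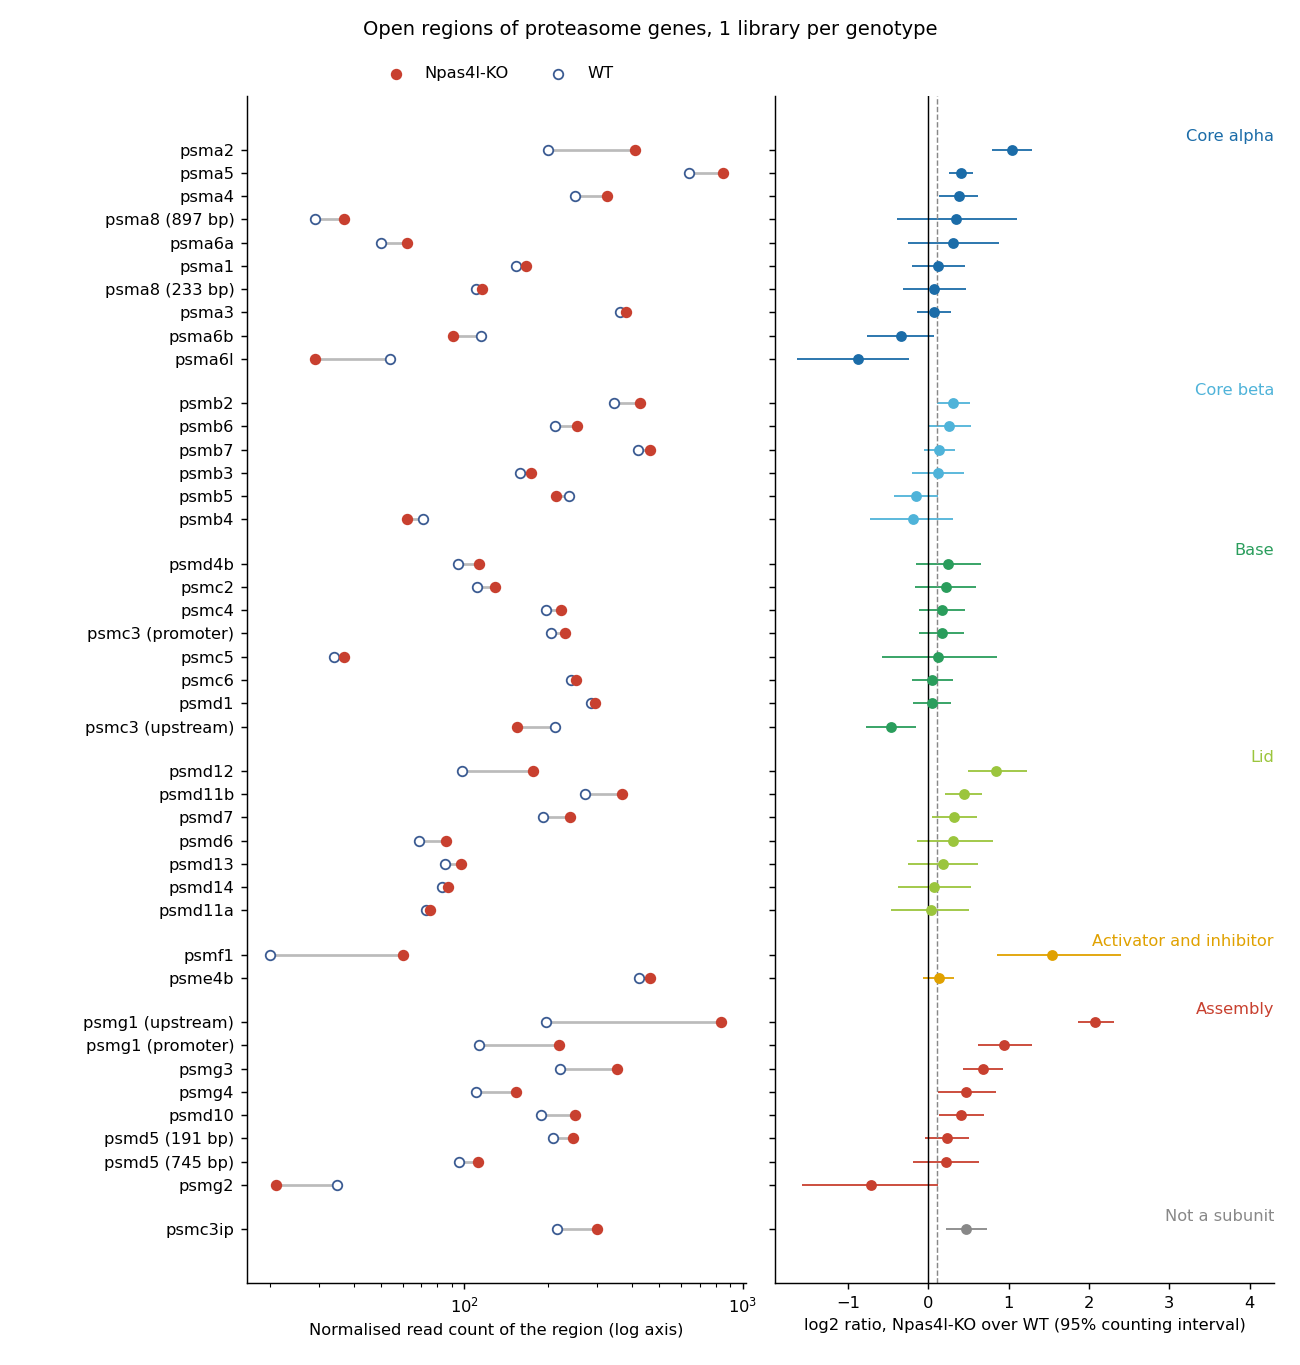
Normalised read count of each proteasome region on a log axis, filled points for Npas4l-KO and open points for WT (left), and its log2 ratio with the 95% counting interval (right), by place in the complex. The solid line marks 0 and the dashed line the median of all promoter regions, 0.11, and 36 of 42 regions lie right of 0.

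The alpha subunits of the core had 10 regions at 9 genes, of which 8 lay above 0 and 6 above the promoter median, with a median log2 ratio of 0.22. Among the 9 alpha promoter regions 8 lay above 0, where 62.9% of all promoter regions did. The psma5 (ENSDARG00000003526) promoter had the highest mean of all proteasome regions, with 847 normalised reads in the Npas4l-KO library and 640 in the WT library, or 1228 and 928 per kb of region, and a log2 ratio of 0.40 (0.25 to 0.55). The promoter of psma2 (ENSDARG00000040121), on chromosome 16 from 43440895 to 43441455, held 410 normalised reads in the Npas4l-KO library against 199 in the WT library. Its log2 ratio was 1.04 (0.80 to 1.29), and 0.525% of the other promoter regions in its level band were as high. The psma4 promoter held 324 against 249, a log2 ratio of 0.38 (0.14 to 0.62), exactly at the 1.3-fold rule, and the nearest region short of that rule was a psma8 region at 1.27-fold.

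The other alpha promoters lay within counting error of 0. The psma1 promoter held 167 normalised reads in the Npas4l-KO library and 153 in the WT library, a log2 ratio of 0.13 (−0.20 to 0.45), and psma3 held 380 and 361, at 0.07 (−0.14 to 0.29). psma8, whose mammalian counterpart is an alpha subunit of male germ cells, had its main region inside the gene with 116 against 110 normalised reads, at 0.08 (−0.31 to 0.47). A smaller psma8 region 897 bp from the TSS held 37 against 29, at 0.34 (−0.38 to 1.10).

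The alpha subunit name psma6 is shared by 3 genes, whose regions differed in direction. The psma6a promoter held 62 normalised reads in the Npas4l-KO library and 50 in the WT library, a log2 ratio of 0.30 (−0.25 to 0.88). The psma6b promoter held 91 and 115, at −0.33 (−0.76 to 0.07), and these intervals overlap. The single region of psma6l (ENSDARG00000043899) lay 4615 bp upstream of the TSS and held 29 against 54, at −0.87 (−1.64 to −0.24), the lowest log2 ratio of the 42. The handling of reads that fit near-identical copies is not given in these sources, so values of gene copies are less certain than those of single genes.

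The beta subunits had 6 regions at 6 genes, all promoters, with a median log2 ratio of 0.13. Of these, 4 lay above 0 and above the promoter median, where 62.9% of all promoter regions lay above 0. By the 1.3-fold rule 0 of 6 passed, where 21.2% of all promoter regions were higher and 8.68% lower. The regions of the 3 proteolytic subunits went both ways. psmb5, the chymotrypsin-like subunit, had 213 normalised reads in the Npas4l-KO library against 237 in the WT library, a log2 ratio of −0.15 (−0.43 to 0.12). psmb6, the caspase-like subunit, had 253 against 211, at 0.26 (−0.01 to 0.53), and psmb7, the trypsin-like subunit, had 463 against 421, at 0.14 (−0.05 to 0.33). Of the structural subunits, psmb2 had 428 against 345, at 0.31 (0.11 to 0.52), the only beta region whose interval did not include 0. psmb3 had 173 against 159, at 0.12 (−0.20 to 0.44), and psmb4 had 62 against 71, at −0.19 (−0.73 to 0.30).

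The promoters of the base of the regulatory particle differed little. All 7 lay above 0, where 62.9% of all promoter regions did, and 5 lay above the promoter median. Their log2 ratios lay between 0.05 and 0.25 with a median of 0.17, and each interval included 0. The ATPase promoters held 129 normalised reads in the Npas4l-KO library against 111 in the WT library at psmc2, 229 against 204 at psmc3, 222 against 197 at psmc4, 37 against 34 at psmc5 and 251 against 242 at psmc6. The promoter of psmd1, a scaffold of the base, held 295 against 285, at 0.05 (−0.19 to 0.29), and that of psmd4b, a ubiquitin receptor, held 113 against 95, at 0.25 (−0.16 to 0.66). A second region of psmc3 (ENSDARG00000007141), 1380 bp upstream of the TSS on chromosome 7 from 38407192 to 38407599, went the other way. It held 154 normalised reads in the Npas4l-KO library and 212 in the WT library, a log2 ratio of −0.46 (−0.77 to −0.15), while the interval of the psmc3 promoter, 0.17 (−0.11 to 0.45), lay wholly above that of the upstream region.

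The lid had 7 promoter regions at 7 genes, with a median log2 ratio of 0.31. All 7 lay above 0, where 62.9% of all promoter regions did, and 5 lay above the promoter median. The promoter of psmd12 (ENSDARG00000052377), a structural lid subunit, lay on chromosome 6 from 19473745 to 19474090 and held 177 normalised reads in the Npas4l-KO library against 98 in the WT library, at 0.85 (0.49 to 1.22). The psmd11b promoter held 369 against 271, at 0.44 (0.21 to 0.67), while that of its copy psmd11a held 75 against 73, at 0.04 (−0.46 to 0.51), and these intervals overlap. psmd7, the partner of the deubiquitinase in the lid, held 240 against 192, at 0.32 (0.04 to 0.60). psmd14, that deubiquitinase, held 87 against 83, at 0.07 (−0.37 to 0.53). psmd6 held 86 against 69, at 0.31 (−0.14 to 0.81), and psmd13 held 97 against 85, at 0.19 (−0.25 to 0.62).

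The activator and the inhibitor had 1 promoter region each, and both lay above 0, where 62.9% of all promoter regions did. psme4b, an activator that caps the core without ATP, held 464 normalised reads in the Npas4l-KO library against 423 in the WT library over 1351 bp, the widest proteasome region, at 0.13 (−0.06 to 0.33). psmf1 (ENSDARG00000022652), known as an inhibitor of the isolated core in mammals, held 60 against 20, at 1.54 (0.85 to 2.39), on chromosome 6 from 51810657 to 51811142. This is a low region, and 1.80% of the other promoter regions in its level band were as high.

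The largest log2 ratio of the 42 regions lay at an assembly chaperone gene, psmg1 (ENSDARG00000040620). The 8 regions at 6 assembly genes had a median log2 ratio of 0.44, and 7 lay above 0 and above the promoter median. Of the 8, 5 were at least 1.3-fold higher in the Npas4l-KO library, where 19.8% of all regions were. Among the 7 promoters, 6 lay above 0 and 4 were at least 1.3-fold higher, against 62.9% and 21.2% of all promoter regions. psmg1 and psmg2 encode partners of 1 chaperone dimer of the core, and psmg3 and psmg4 of another. The psmg1 promoter, on chromosome 10 from 210377 to 210839, held 218 normalised reads in the Npas4l-KO library against 113 in the WT library, at 0.94 (0.62 to 1.29). The region upstream of it, 1046 bp from the TSS and so just past the 1 kb limit for promoters, at 211351 to 212146, held 831 against 196, 4.22-fold more, at 2.08 (1.86 to 2.31). Of the 3249 other promoter regions in the level band of that value, 0 percent were as high. Of 1727 regions of that band that were no promoters, with a median of 0.02, 6 were as high. The band was set by the mean of both libraries, 513.5 normalised reads. The WT value of 196 alone falls in the band from 160.5 to 334.5, where other promoter regions reached a log2 ratio of 8.56.

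The 6 remaining assembly regions were all promoters. Of these, 5 lay above 0, where 62.9% of all promoter regions did, and 1 lay below. That 1, the psmg2 promoter, held 21 normalised reads in the Npas4l-KO library and 35 in the WT library, at −0.71 (−1.57 to 0.12). It is a low region, and its interval includes 0. The psmg3 region held 354 against 221, at 0.68 (0.44 to 0.93), and psmg4 held 153 against 110, at 0.47 (0.12 to 0.85). psmd10 and psmd5 encode chaperones of the base. The psmd10 promoter held 250 against 188, at 0.41 (0.14 to 0.69). The psmd5 regions were close to each other, with 245 against 208 at 0.24 (−0.04 to 0.51) inside the gene, and 112 against 96 at 0.22 (−0.18 to 0.63) 745 bp upstream. Without psmg1 the median of the assembly regions was 0.32. The psmc3ip promoter, which belongs to no part of the complex, held 299 against 215, at 0.47 (0.22 to 0.74).

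**Figure D2:**
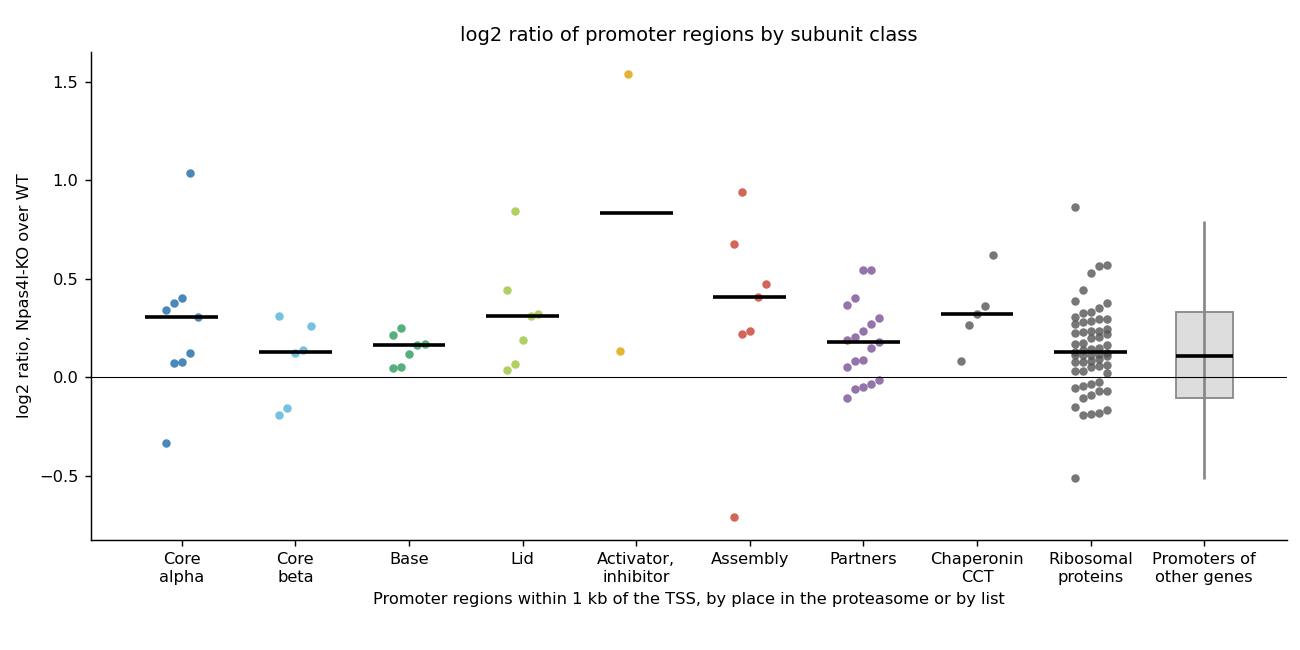
log2 ratio of promoter regions by place in the proteasome, for partners of the proteasome, chaperonin and ribosomal protein genes, and for promoters of other genes. Each point is 1 region and each bar a median, and the box at the right gives the quartiles with a line from the 5th to the 95th percentile. Base promoters lie between 0.05 and 0.25, and assembly promoters between −0.71 and 0.94.

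In width and distance from the TSS proteasome promoters were close to other promoters. Their median width was 490 bp, against 505 bp for all promoter regions, and their median distance from the TSS was 127 bp, against 133.5 bp. The median level per kb of region was 343 normalised reads in the Npas4l-KO library and 278 in the WT library, while that of all promoter regions was 313 and 291. Per kb, the proteasome median thus lay above that of all promoters in the Npas4l-KO library and below it in the WT library. Per region, without division by width, it lay above in both. It was 213 against 165 normalised reads in the Npas4l-KO library and 159 against 152 in the WT library.

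Because low regions scatter more, proteasome promoters were set beside other promoters of the same level band. In the band from 160.5 to 334.5 normalised reads, 16 proteasome promoters had a median log2 ratio of 0.29, against 0.11 for 3236 others. In that band 7 of 16 were at least 1.3-fold higher in the Npas4l-KO library, against 17.4% of the others. The 7 include psmc3ip, which is no subunit. In the lowest band, up to 77.5 normalised reads, 8 had a median of 0.21, against 0.13 for others. From 78 to 160 normalised reads, 10 had 0.20, against 0.12. In the highest band 5 had 0.14, against 0.09. In the lowest band 1 of 8 was at least 1.3-fold higher, against 33.7% of the others. From 78 to 160 normalised reads 2 of 10 were, against 23.2%, and in the highest band 1 of 5 was, against 10.6%. The median proteasome promoter lay 0.10 above the median of its band, and 28 of 39 lay above it.

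**Figure D3:**
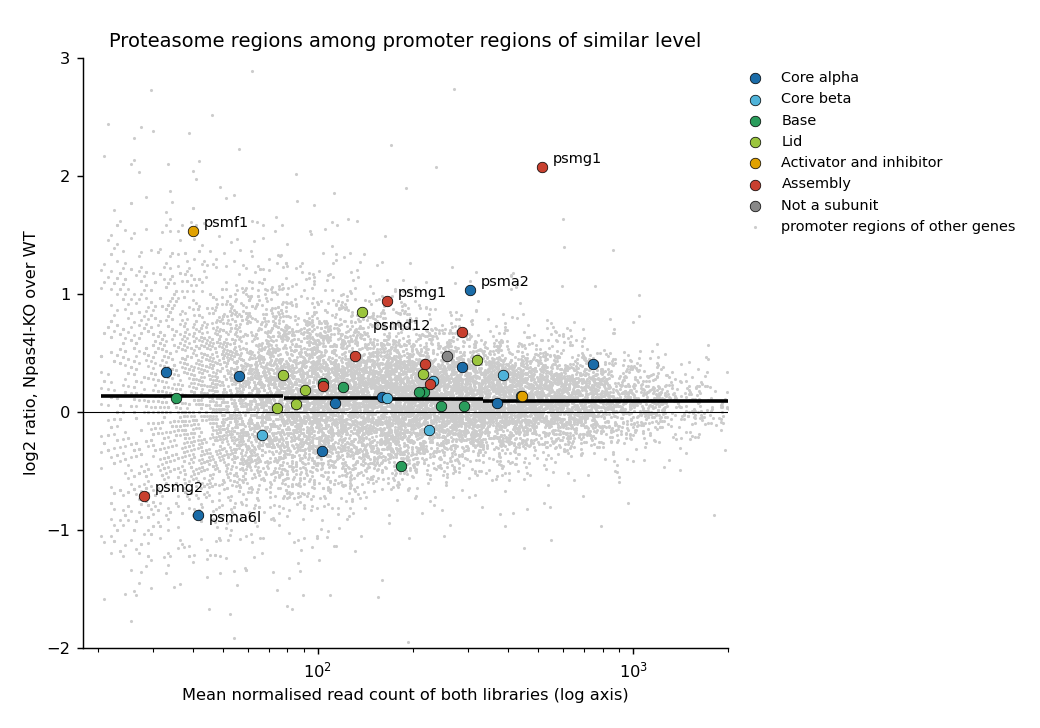
log2 ratio of each proteasome region, coloured by class, against its mean normalised read count on a log axis, with promoter regions of other genes in grey and the median of each level band as a black line. The axes leave out the most extreme grey points. The upstream psmg1 region, at 2.08, lies above the promoter regions of its level band, which is set by the mean of both libraries.

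For comparison 3 lists were used, beside the 62.9% of all promoter regions that lay above 0. The partners are genes that act with the proteasome under other names, such as ubiquitin genes and shuttle proteins. Their 19 promoter regions had a median log2 ratio of 0.18, with 14 above 0, 11 above the promoter median and 3 at least 1.3-fold higher in the Npas4l-KO library. These are 15.8% of them, where 21.2% of all promoter regions were. The median level of the partner promoters was 329 normalised reads. Of promoter regions outside the proteasome set, 17.4% passed in the level band from 160.5 to 334.5 and 10.6% in the band above. The 3 partner promoters belonged to the polyubiquitin gene ubc (329 against 225 normalised reads, 0.55, 0.30 to 0.80), the small lid subunit gene shfm1 (295 against 202, 0.54, 0.29 to 0.81) and the shuttle gene ubqln4 (645 against 487, 0.40, 0.23 to 0.58). Among partner regions beyond 1 kb, one at zfand5a was higher (117 against 85, 0.46, 0.04 to 0.87) and one at zfand5b was lower (166 against 219, −0.40, −0.70 to −0.10), both genes of ubiquitin-binding zinc finger proteins. The other regions of these genes and of shfm1 had log2 ratios of −0.03 (−0.33 to 0.27) at another zfand5a region beyond 1 kb, −0.10 (−0.33 to 0.12) at the zfand5a promoter, 0.15 (−0.27 to 0.58) at the zfand5b promoter and −0.29 (−0.61 to 0.03) at a region upstream of shfm1, each with an interval that holds 0. The promoter of nfe2l1b, a copy of the factor that raises proteasome gene transcription in mammals, had 0.18 (0.02 to 0.34), and that of pomp, the maturation factor of the core, had 0.05 (−0.12 to 0.23).

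Promoters of other large complexes had medians on the same side of 0. The 5 promoters of the chaperonin CCT, which folds actin and tubulin, had a median of 0.32, with 5 above 0 and 4 above the promoter median. Its 3 regions beyond 1 kb went both ways, with 120 normalised reads in the Npas4l-KO library against 62 in the WT library at cct6a, 81 against 69 at cct2, and 4 against 73 upstream of tcp1, a log2 ratio of −3.89 (−6.02 to −2.69). The 61 ribosomal protein promoters had a median of 0.13, with 47 above 0, 36 above the promoter median and 6 at least 1.3-fold higher in the Npas4l-KO library. That is 9.84% of them, where 21.2% of all promoter regions were. Their median level was 379 normalised reads, against 160 for all promoter regions. In the level band from 335 upward, 10.6% of promoter regions outside the proteasome set were at least 1.3-fold higher. Differences between these lists were not tested.

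Regions around the proteasome genes with a difference of at least 1.5-fold were examined to see how far the difference reached, a choice made after their values were seen. Around the upstream psmg1 region, 10 regions of other genes or of no gene lay within 100 kb, with a median log2 ratio of −0.05 and a range from −1.43 to 0.65. The nearest, at mpzl1l and 2.23 kb away, held 409 normalised reads in the Npas4l-KO library and 413 in the WT library. The 3 regions within 100 kb of psmf1 had between −0.22 and 0.40. Within the same distance, 5 regions around psmg3 ran from −0.65 to 0.67 and 5 around psmg2 from −0.46 to 0.42. The 11 around psma6l ran from −0.43 to 0.90.

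Around psma2, 6 of the 7 regions within 100 kb lay above 0, where 49.4% of all regions did. The nearest neighbours of psma2 belong to ccdc127a. One of these regions, 2.89 kb away, held 36 normalised reads in the Npas4l-KO library against 54 in the WT library. Its log2 ratio was −0.57 (−1.24 to 0.05), an interval that holds 0. Another, 4.64 kb away, held 71 against 7, at 3.17 (2.32 to 4.81). The median of 7 regions within 100 kb was 0.17. At psmd12 the nearest region, of micall1a and 2.94 kb away, was also higher, with 40 against 17, at 1.19 (0.42 to 2.16). The other 2 regions within 100 kb of psmd12 had −0.43 (−0.88 to −0.01) at ppp1r12c and 0.27 (−0.25 to 0.80). These distances run from centre to centre. Measured from edge to edge, 35 of the 42 proteasome regions had no region of another gene or of no gene within 5 kb.

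**Figure D4:**
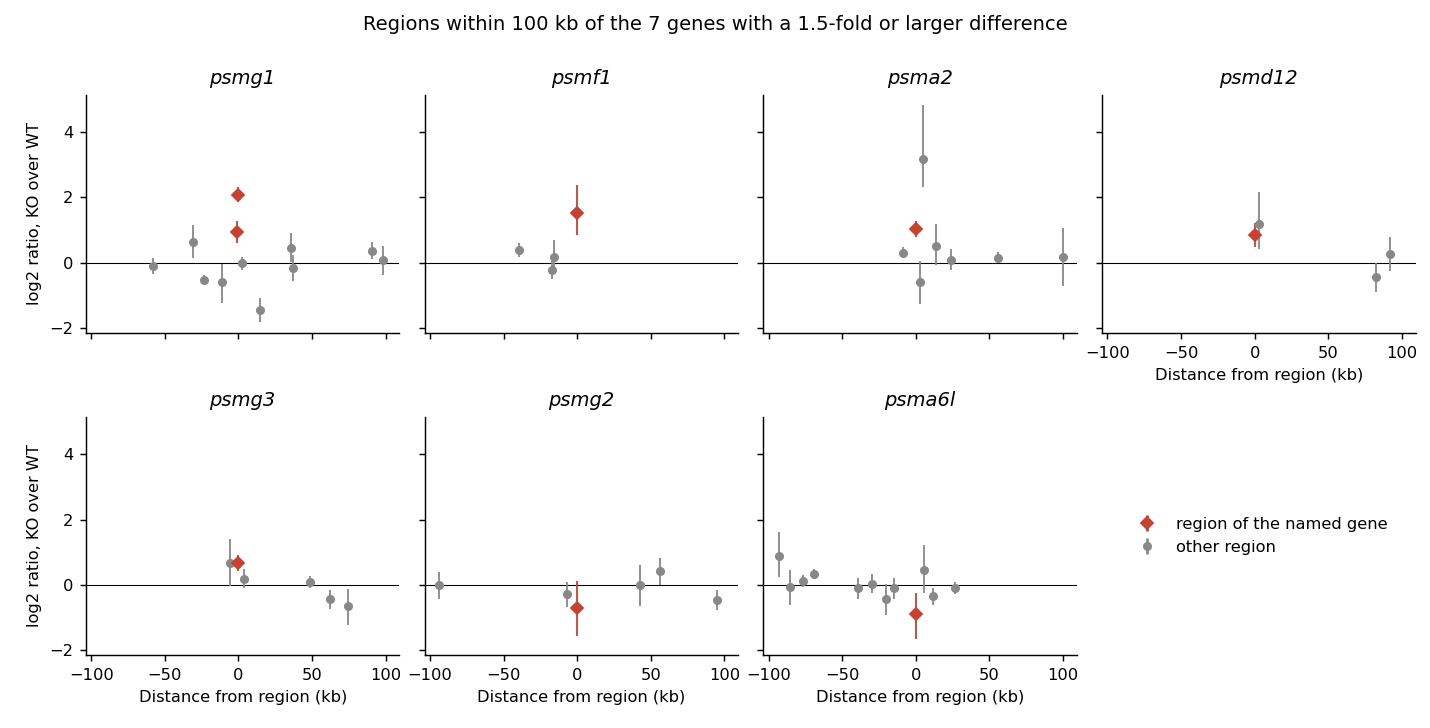
log2 ratio with 95% counting interval of the regions of the 7 proteasome genes with a difference of at least 1.5-fold (diamonds) and of other regions (circles), against distance in kb. Around psmg1 the other regions lie between −1.43 and 0.65, below both psmg1 regions at 0.94 and 2.08.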

How the data were processed

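ATAC-seq of single embryos at the 1-somite stage gave 1 Npas4l-KO and 1 WT library, grouped by the genotype in the labels. Per the submitters' processing notes, DESeq2 1.14.1, DESeq, MACS2, STAR 2.5.3a, deepTools 2.5.4, Trimmomatic 0.36 and Picard 2.9.0 were used with the build GRCz10, in roles not stated. The merging of regions, duplicate removal and any read shift are not given in the sources used here. Both deposited library columns hold scores, taken here as normalised read counts rounded by the authors. The Npas4l-KO values fit whole reads times a scale factor, and the WT values cannot be checked in this way. The deposited log2 ratio, mutant over WT per the file headers, equals that of the values with a pseudocount of 1. The deposited fraction of a region inside its gene body served only to check positions. Coordinates are as deposited, and whether starts count from 0 or 1 is not given.

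Reads were recovered by dividing by scale factors. That of Npas4l-KO, 1.065, was estimated from the values, and that of WT, 0.939, was assumed to be its reciprocal, which the WT values cannot check. These reads set the counting intervals and 1 alternative only. Rows were members by symbol, and 37 of 38 gene identifiers were in the gene name table. Subunit classes follow the known place of each subunit. Named were, per class, the regions with the highest mean, lowest and highest log2 ratio, all at least 1.3-fold different, and genes with 2 regions; other members are given for completeness. Members and lists were chosen with earlier results of these data known. No filter was applied, and the lowest mean in the table was 20.5. Promoter sequences were not used here. Procedures were tested on simulated data. Software was scipy 1.17.1, pandas 2.3.3, matplotlib 3.10.9 and numpy 2.4.6 under Python 3.11.15.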

Additional observations from a re-analysis of the deposited data

How the results depend on the processing

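No paired analysis was possible because each genotype had 1 library and the labels give no replicate numbers, so no library could be left out either. Pseudocounts of 0.5 and 5, 1 region per gene, promoter regions alone, and, chosen after seeing the data, leaving out psmc3ip or psmg1 kept the median over all proteasome regions between 0.20 and 0.22, against 0.22 as reported. Some class medians moved more. That of core alpha was 0.13 with 1 region per gene and 0.30 with promoter regions alone. A minimum mean of 50 left psme4b alone, at 0.13, in the class of activator and inhibitor. Centring on the promoter median took the same amount from every region. It lowered the median over all proteasome regions to 0.11, core beta to 0.02 and base to 0.03, and the regions at least 1.3-fold higher to 6. It lowered the medians of the other promoters in the 4 level bands to 0.025, 0.0091, 0.0018 and −0.018, and that of ribosomal protein regions to 0.0071. With libraries scaled to their recovered reads in regions, a shift of −0.029, the medians of the 3 upper level bands were 0.087, 0.080 and 0.062. The median over all proteasome regions was then 0.19. A minimum mean of 50 kept 37 of 42 regions and left 1 at least 1.3-fold lower, as did promoter regions alone, because the other lower regions were thus removed. By deciles of level the median proteasome promoter lay 0.097 above its band.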

Other observations

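The symbol rule passed over 4 regions at 3 genes whose identifiers the gene name table gives the symbol of a proteasome subunit. They were looked up after the values of the members had been seen. The gene named PSMB10 there, the counterpart of an immune subunit of the core in mammals, had 2 regions on chromosome 4. The one from 75641151 to 75641841, 403 bp from the TSS, held 137 normalised reads in the Npas4l-KO library against 33 in the WT library, at 2.02 (1.52 to 2.65). The other, from 75639639 to 75639959, held 91 against 51, at 0.82 (0.33 to 1.36). The promoter of the gene named PSMA2, listed in the table as si:rp71-45k5.4, held 56 against 57, at −0.03 (−0.58 to 0.53), while the psma2 promoter described above was 2.05-fold higher. The promoter of the gene named PSMD3, a lid subunit, held 112 against 114, at −0.03 (−0.41 to 0.37). With these 4 regions added, 38 of 46 regions lay above 0, where 49.4% of all regions and 62.9% of all promoter regions did. The median stayed at 0.22. Of the 46, 14 were at least 1.3-fold higher (19.8% of all regions) and 3 at least 1.3-fold lower (21.4%). At 2-fold, 4 were higher (3.78%) and 0 lower (4.03%).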
